A study of Mus musculus with 8 samples.

Results

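The data were the A-to-I RNA editing levels of mouse Th17 cells that lacked or carried the RNA helicase DDX5. Every site of the deposited table of wild-type (WT) and DDX5-deficient cells was taken, which gave 355 sites in 143 genes, of the 988 sites that both editing tables of the series hold. Levels were compared at the 328 sites, in 130 genes, that had a value in all 4 libraries. All 4 libraries came from C57BL/6 CD4 T cells cultured for 72 h toward the Th17 state, the helper cells that make interleukin-17. Both groups received anti-CD3 at 0.25 µg/mL and anti-CD28 at 1 µg/mL, which stand in for antigen, and the cytokines that steer naive cells to this fate, IL-6 (20 ng/mL) and TGF-β (0.1 ng/mL). The growth protocol gives a range of TGF-β doses and the treatment protocol a further time point, so the values of the samples' own treatment fields were used. The groups differed in genotype, wild type against DDX5∆T, the label of the DDX5-deficient cells, with 2 libraries each. The series' design text calls the replicates independent and biological, but which animals or cultures they came from, and what drives the deletion of Ddx5, are not given in the sources used here. Expression in these 4 libraries was not analysed here, so neither the loss of Ddx5 nor Th17 marker genes were checked against the labels.

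ADAR enzymes bind double-stranded RNA and turn adenosine into inosine, which is read as guanosine in sequencing. Most edited adenosines of mammals lie in inverted copies of repeats in introns and 3′ UTRs, where long hairpins form, and dense editing there keeps the cell's own RNA from being sensed as foreign. A small number lie in coding sequence and alter the protein, which is called recoding. DDX5 is a DEAD-box helicase that takes part in splicing, RNA processing and transcription, including that driven by RORγt in Th17 cells.

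The sites are shown first, since their surroundings are what the editing enzyme reads. The lines below give 21 bases around each edited adenosine, 5′ to 3′ on the strand of the gene, with the edited base in capitals, from the GENCODE M21 transcripts of the mm10 build. The first set holds 8 of the 9 sites in coding sequence, which are shown because editing there can change a codon. They lie at chr14:75719719 in Cog3, chrX:74226862 in Flna, chr11:46272643 in Cyfip2, chr16:91656133 and chr16:91656089 in Son, chr8:106885604 in Chtf8, chr15:38491612 in Azin1 and chr9:120131419 in Rpsa.
Cog3: cattaaggaaAtttccctgga
Flna: tctagtcttcAggagtcaggg
Cyfip2: cagatacattAagaccagtgc
Son, downstream site: ctggggcattAgagttgcctg
Son, upstream site: ttcggcaactAgggcactgga
Chtf8: catgtggcttAggaccaggtc
Azin1: aattgtggaaAgctgtcttct
Rpsa: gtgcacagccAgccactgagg

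The second set holds the sites outside coding sequence with the largest differences between the group means among sites whose groups did not overlap, 4 in each direction. They lie at chrX:74226650 in an intron of Flna, which a further transcript of the gene retains, and in the 3′ UTRs of Nt5dc3 (chr10:86837257), Mfap1a (chr2:121492422) and Dcaf10 (chr4:45377142), all lower in DDX5-deficient cells. Those that lay higher are in the 3′ UTRs of Gla (chrX:134589292), Bri3bp (chr5:125456927) and Wdr76 (chr2:121543638 and chr2:121543632).
Flna, intron: tctcaggtctAaaggctttga
Nt5dc3: tggctggtctAgaagttacta
Mfap1a: ctcttctagaAgaccagagtt
Dcaf10: actgccttcaAattcacagat
Gla: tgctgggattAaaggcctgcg
Bri3bp: tgaacttgctAagtagctgag
Wdr76, downstream site: cagaaatataAgactttttgt
Wdr76, upstream site: aaaacacagaAatataagact

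Of the 355 sites, 170 in 74 genes were listed as A>G, the form of genes on the plus strand, and 185 in 69 genes as T>C, the form of genes on the minus strand. The reference base was an A on the transcript strand at 308 of the 308 sites with a transcript window. The 3′ UTRs held 284 sites, or 80.0%, introns 33, coding sequence 9 and exons of noncoding transcripts 6, and 23 sites had no annotated transcript on their strand. The sites were clustered, with another listed site within 50 bases for 202 of them, or 56.9%, and a listed site at the adjacent base for 57.

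A T stood before the edited base at 42.5% of the 308 sites and at 19.8% of the 9236 other adenosines within 100 bases in the same transcripts. A G stood before it at 5.19% of the sites and 22.4% of the other adenosines. The base after was a G at 44.8% of the sites against 28.5%. Among the coding windows shown, a T precedes the edited base in Cyfip2, Chtf8 and both Son sites, and a C in Flna and Rpsa. Inverted matches of at least 50 bases and 70% identity were sought between the 201 bases around a site and its whole transcript. At 191 of 308 sites, or 62.0%, such a match covered the site itself. Of 2677 windows tiled over those transcripts, 3.25% had a match that covered the middle base. Clustered sites can share a match, whereas the tiled windows do not overlap. The windows also span whole transcripts, coding sequence included, whereas most sites lie in 3′ UTRs, so the shares differ in location as well. The matches at the sites had a median length of 112 bases, a median identity of 78.4% and a median distance of 424 bases. These are descriptions of the list, and a match is not evidence of a folded hairpin.

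The listing differed between the groups. All 355 sites had a call score, the confidence that SAILOR gives a site, of at least 0.99 in both WT libraries. No such limit held for the DDX5-deficient libraries, where 308 and 295 sites reached it. The deposited coverage was that of WT library 2, where fraction times coverage was a whole number within 0.01 at 355 of 355 sites, against 23 to 26 sites in each other library. It ran from 5 to 2651 reads with a median of 17, and the depth behind the other 3 libraries is unknown. Each level is a share of the reads of a whole culture, so a lower share in every cell and fewer cells with edited RNA cannot be told apart.

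Over the 328 sites with 4 values, editing levels in DDX5-deficient cells overlapped those of WT cells. The median edited level was 21.1% and 27.3% in WT libraries 1 and 2 and 23.7% and 22.0% in DDX5-deficient libraries 1 and 2. Both DDX5-deficient medians lay between the WT medians, and an exact two-sided permutation test over libraries gave p = 1.0, where the smallest p that 2 against 2 libraries allows is 0.333. The median difference of group means was -1.02 percentage points, with 176 sites lower and 152 higher. The median absolute difference between single libraries of a group was 6.84 points in WT and 5.12 points in DDX5-deficient cells.

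limma on the arcsine square root of the fraction, with Benjamini-Hochberg adjustment over the 328 sites, called 0 sites at an adjusted p under 0.05, a share of 0%, and the smallest adjusted p was 0.417. At an unadjusted p under 0.05 there were 31 sites, or 9.45%, of which 22 lay lower and 9 higher in DDX5-deficient cells. No site or gene named here therefore passed the test, and the directions given are those of the values. Both DDX5-deficient values lay below both WT values at 78 sites, which is 23.8% of those tested, and above both at 64 sites, or 19.5%. In either direction this was 43.3%, and at the remaining 186 sites the groups overlapped.

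The libraries themselves differed. WT library 2 lay above WT library 1 at 208 sites, with a median difference of 3.36 points, and DDX5-deficient library 2 lay below library 1 at 200 sites, by a median of -1.93 points. DDX5-deficient library 1 less WT library 1 had a median of 1.74 points, and library 2 less library 2 a median of -4.01 points, so the sign of the overall difference depended on which libraries were set side by side. Across the 328 sites Pearson's r was 0.800 between the WT libraries, 0.843 between the DDX5-deficient libraries and 0.734 to 0.835 between groups. These values are across sites that share libraries and, within a gene, reads. The A>G sites had a median difference of -1.10 points over 155 sites and the T>C sites of -1.01 points over 173 sites.

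**Figure D1:**
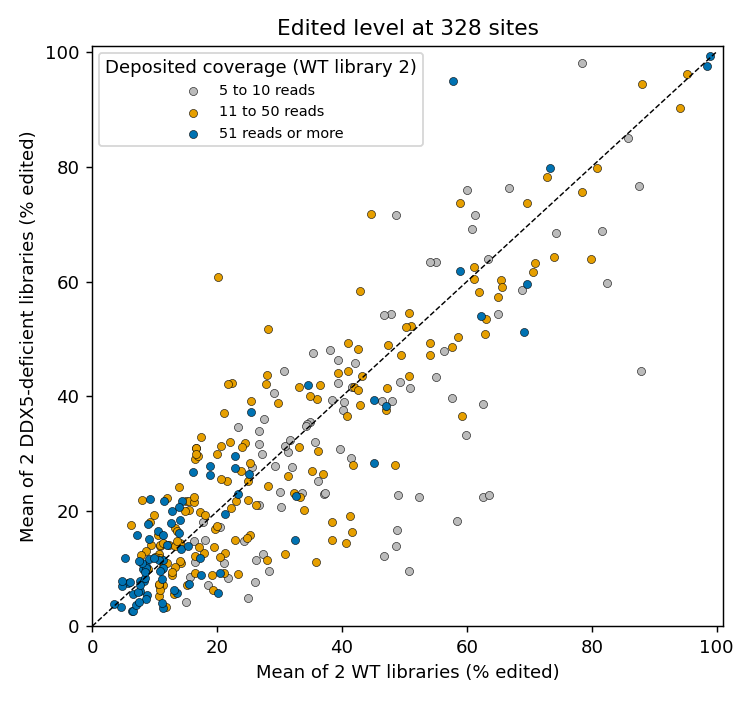
Mean edited level of the 2 DDX5-deficient libraries (y axis, percent of reads) against that of the 2 WT libraries (x axis, percent of reads) at 328 sites, coloured by the deposited coverage of WT library 2, with the dashed line marking equal levels. Points lie on both sides of the line, 176 below and 152 above, and the widest scatter is among sites of low coverage.

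The direction of the difference moved with the coverage. Over all sites, 23.8% lay below and 19.5% above both WT values. At the 32 sites of up to 6 reads the median difference was -6.17 points, with 11 sites (34.4%) below both WT values and 0 above. At the 56 sites of 7 to 10 reads it was -5.51 points, with 16 (28.6%) below and 1 (1.79%) above. At 11 to 20 reads it was -2.73 points over 88 sites, with 16 (18.2%) below and 15 (17.0%) above. The bins were set by the depth of WT library 2, and the libraries differed within them. DDX5-deficient library 1 less WT library 1 had medians of -3.59, -0.58 and 2.55 points in these bins, in the same order. Library 2 less library 2 had medians of -18.3, -13.3 and -5.11 points. The better covered sites had median differences of the opposite sign. At 21 to 50 reads it was 0.96 points over 71 sites, with 15 (21.1%) below and 24 (33.8%) above. At 51 or more reads it was 0.38 points over 81 sites, with 20 (24.7%) below and 24 (29.6%) above. In these better covered bins the medians were 3.72 and 2.46 points for library 1 less library 1. For library 2 less library 2 they were -1.06 and -1.19 points. A similar split followed the score. The 277 sites that scored 0.99 or more in all 4 libraries had a median difference of 0.48 points. Of them 49 (17.7%) lay below and 64 (23.1%) above both WT values. The 51 sites that fell short of that score in a DDX5-deficient library had a median difference of -8.44 points, with 46 of them lower. The score is computed from the same reads as the level, so the second group is not independent of the difference. The part of the listing rule in these values was not tested.

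The 9 coding sites were the best covered class, with a median of 90 reads in WT library 2. DDX5-deficient cells had lower mean levels at 6 of the 9, with a median difference of -3.46 points, and at 4 of the 9, or 44.4% against 23.8% of all sites, both DDX5-deficient values lay below both WT values. The sites lower in both libraries were in Flna, Cyfip2 and Son. At 1 site, in Azin1, both DDX5-deficient values lay above both WT values. The adjusted p-values of the 9 sites in limma with Benjamini-Hochberg adjustment ran from 0.517 to 0.982, so none passed.

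Flna encodes filamin A, an actin crosslinker in which editing exchanges a glutamine for an arginine. The Flna site was edited at 54.4% and 35.6% in WT cells and at 34.8% and 22.0% in DDX5-deficient cells. The groups did not overlap, but the highest DDX5-deficient value lay just under the lowest WT value. As group values these were 45.0 ± 13.3% and 28.4 ± 9.11% (SD, n = 2 each), a difference of -16.6 points. In each group library 2 was the lower. Libraries of another wild-type Th17 culture of the series had 31.6% and 25.6% at this site, inside the range of the DDX5-deficient values.

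Cyfip2 encodes a subunit of the WAVE complex that drives actin branching, and its editing exchanges a lysine for a glutamate. It was edited at 22.4% and 17.99% in WT and 9.38% and 2.24% in DDX5-deficient cells, or 20.2 ± 3.13% against 5.81 ± 5.04% (SD, n = 2 each). The WT library 2 value rested on 139 reads, with an exact 95% interval of 11.99% to 25.4%, which holds the other WT value and neither DDX5-deficient value. The other wild-type Th17 culture had 8.68% and 11.8% at this site, also outside that interval and below both WT values. A difference between wild-type cultures of that size was thus present without a difference in genotype. The difference was -14.4 points, with an adjusted p of 0.517 in limma and an unadjusted p of 0.0341. The score in DDX5-deficient library 2 was 0.926, under the limit that all WT values met.

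Son encodes a splicing cofactor, and its 2 sites lie 44 bases apart. The downstream site had 12% and 10.8% in WT and 4.30% and 2.07% in DDX5-deficient cells, and the upstream site 9.35% and 8.33% against 7.38% and 3.38%. At the downstream site the score in DDX5-deficient library 2 was 0.905, again under the limit that all WT values met. The groups did not overlap at either site, although the gap at the upstream site was small. The other wild-type Th17 culture had 7.98% and 6.41% at the downstream site, between the groups. The sites share reads and so are not separate evidence.

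At the remaining coding sites shown, the DDX5-deficient values lay above WT in Azin1 and overlapped WT elsewhere. Azin1, the antizyme inhibitor of polyamine synthesis, in which editing exchanges a serine for a glycine, had 5.73% and 6.52% in WT and 8.13% and 7.22% in DDX5-deficient cells. Cog3, a subunit of a Golgi tethering complex, had 65.9% and 56.3% in WT and 54.9% and 70% in DDX5-deficient cells, at 16 reads. Its DDX5-deficient values lay on either side of the WT values. Chtf8, a subunit of the clamp loader for sister chromatid cohesion, had 4.22% and 11.1% against 8.81% and 5.58%, with the DDX5-deficient values inside the WT range. Rpsa, a protein of the small ribosomal subunit, was the deepest site at 2651 reads, with 3.33% and 3.70% against 4.22% and 3.59%. Rpsa has many processed pseudogenes, so reads of near-identical copies may be mixed into its level.

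**Figure D2:**
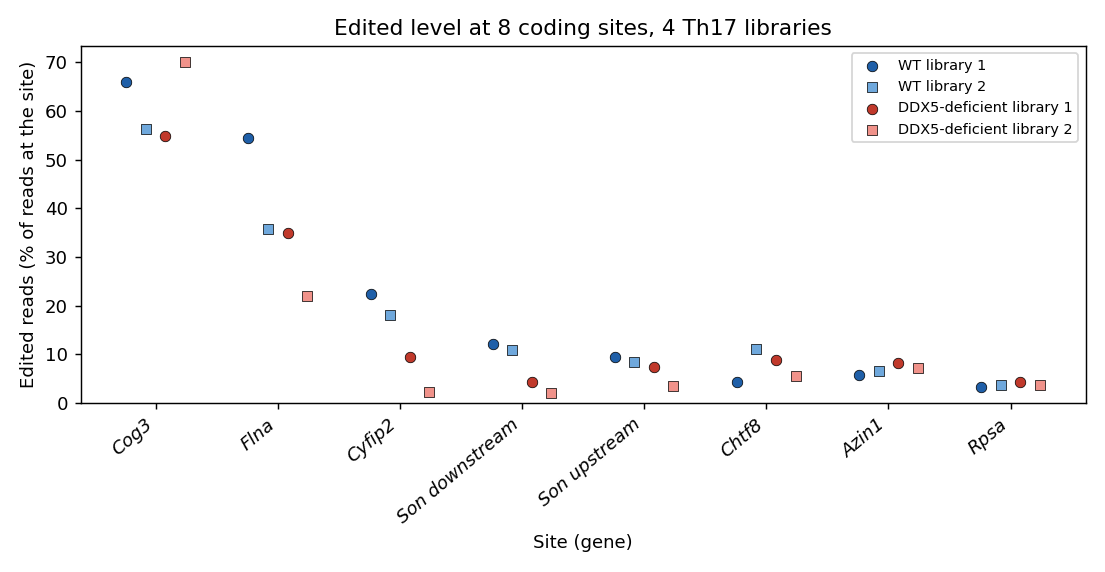
Edited level (y axis, percent of reads at the site) at 8 of the 9 coding sites (x axis, ordered by the WT mean), with 1 point for each of the 4 libraries. Both DDX5-deficient points lie below both WT points in Flna, Cyfip2 and both Son sites, and above them in Azin1, while the points mix in Cog3, Chtf8 and Rpsa.

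Intronic sites were the class with the most uniform direction. Of the 24 intronic sites with 4 values, in 17 genes, 22 lay lower and 2 higher in DDX5-deficient cells, with a median difference of -10.2 points. At 10 of them, 41.7% against 23.8% of all sites, both DDX5-deficient values lay below both WT values, and at 0 above. The 267 sites in 3′ UTRs split 127 lower and 140 higher, with a median of 0.38 points, 52 (19.5%) below and 62 (23.2%) above. Intronic sites were also thinly covered, with a median of 7 reads against 20 in 3′ UTRs. At 11 to 20 reads 3 of 3 intronic sites lay lower, and at 21 or more reads 1 of 2. Both DDX5-deficient values lay below both WT values at 0 of these better covered sites.

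Among sites of up to 10 reads, the 19 intronic sites had a median difference of -10.4 points. Of these 18 lay lower, and 10, or 52.6% beside 23.8% of all sites, lay below both WT values. The 61 sites in 3′ UTRs at that coverage had a median difference of -1.32 points, with 32 lower and 14 (23.0%) below. The median intronic level less the median 3′ UTR level in these low covered sites was 0 points in both WT libraries and -10.9 and -7.14 points in DDX5-deficient libraries 1 and 2. Both DDX5-deficient libraries thus lay below both WT libraries, and the exact permutation p was 0.333, the smallest possible. Over all coverages the gap was 17.1 and 16.4 points in WT and 10.9 and 4.51 points in DDX5-deficient libraries, again with an exact permutation p of 0.333. The score limit of the listing held in the WT libraries only, so neither test can tell a lower level from an effect of the listing. The comparison by coverage was chosen after the values were seen, and levels of unspliced RNA in these libraries were not measured here.

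Cd48, a surface ligand of lymphocytes, held 7 of the 33 listed intronic sites. At its site chr1:171702019 the levels were 33.3% and 60% in WT and 12.5% and 12% in DDX5-deficient cells, at 5 reads. All 3 Cd48 sites with 4 values had both DDX5-deficient values below both WT values, and 4 more had no value in DDX5-deficient library 2. Without Cd48 the 21 other intronic sites had a median difference of -9.45 points. Of these 19 lay lower, and 7, or 33.3% beside 23.8% of all sites, lay below both WT values.

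Hif1a, the oxygen-regulated transcription factor that favours glycolysis in Th17 cells, had edited sites of both kinds. Its intronic site chr12:73928840 had 29.8% and 20.0% in WT and 2.56% and 7.41% in DDX5-deficient cells, at 10 reads, and chr12:73934240 had 21.4% and 33.3% against 16.7% and 8.33%, at 9 reads. Both lay below WT in both libraries. Its 3′ UTR sites differed in direction, and chr12:73947511 had 8.33% and 7.50% in WT and 23.5% and 20.5% in DDX5-deficient cells, at 40 reads. Of the 5 sites in the 3′ UTR, 3 lay above both WT values, and these 3 lie within 8 bases. The Hif1a mean over all 7 sites was 15.6% and 19.4% in WT and 17.5% and 18.7% in DDX5-deficient cells, so the groups overlapped in a mean over sites whose differences had opposite signs.

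Flna held the intronic site with the largest difference, which lies 212 bases from the coding site in the genome. It had 92.3% and 83.3% in WT and 57.7% and 31.3% in DDX5-deficient cells, a difference of -43.3 points with an adjusted p of 0.417 in limma. The coverage was 6 reads, and the exact 95% interval of the WT library 2 value ran from 35.9% to 99.6%. Both Flna sites had lower DDX5-deficient means.

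The 22 sites with no annotated transcript on their strand also lay mostly lower, 17 against 5, with a median of -10.5 points. Of these 9, or 40.9% beside 23.8% of all sites, lay below both WT values and 1 above, against 19.5% of all sites. Among the 22 were 9 Ccr4 sites beyond the annotated end of its 3′ UTR. Of these Ccr4 sites 5, or 55.6%, lay below both WT values and 1 above, so this class leans on 1 gene. In noncoding exons 4 of 6 sites lay lower, with a median of -5.33 points.

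**Figure D3:**
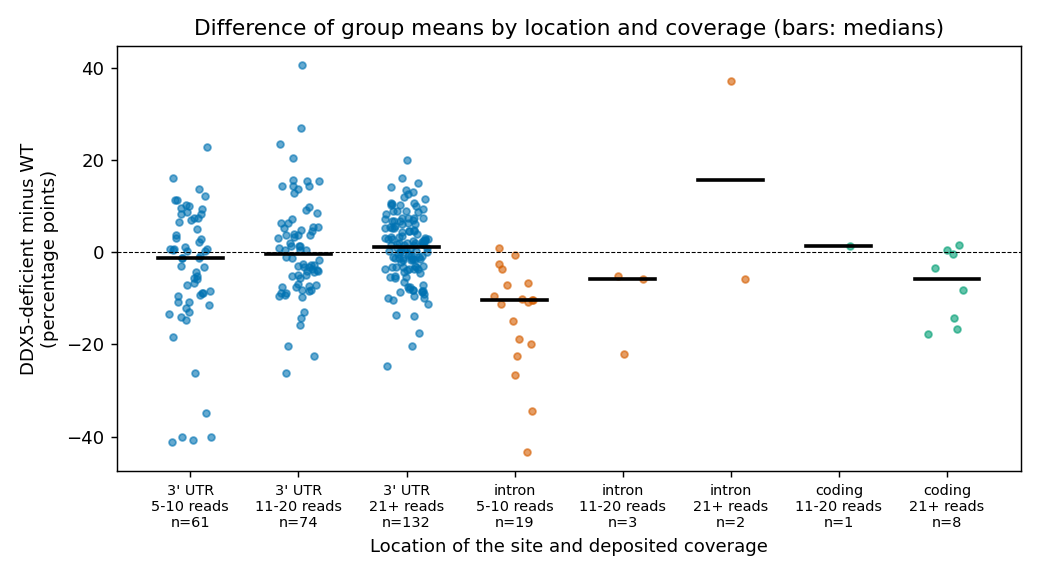
Difference of group means (y axis, DDX5-deficient minus WT in percentage points) for sites in 3′ UTRs, introns and coding sequence, split by the deposited coverage of WT library 2 (x axis); each point is 1 site, bars mark medians and n gives the sites. Intronic sites of up to 10 reads have a median of -10.4 points, against -1.32 points for 3′ UTR sites of that coverage.

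Where levels lay lower in DDX5-deficient cells, the sites with the largest differences among those without overlap were thinly covered. Nt5dc3, a predicted nucleotidase, had 44.4% and 57.1% in WT and 10% and 9.09% in DDX5-deficient cells. It had the smallest adjusted p among genes, but its 7 reads in WT library 2 allow an exact 95% interval of 18.4% to 90.1%. Mfap1a, a spliceosome component, had 47.1% and 80.0% against 16.7% and 29.0%, and Dcaf10, a substrate receptor of a ubiquitin ligase, had 41.7% and 83.3% against 20.0% and 25% at its downstream site. In both genes WT library 1 lay nearer to a DDX5-deficient value than to WT library 2.

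The adjacent Dcaf10 site chr4:45377141 had 33.3% and 83.3% in WT and 20.0% and 16.7% in DDX5-deficient cells. Fnbp1, a membrane-bending adaptor of actin assembly, had at chr2:31030384 47.4% and 50% in WT and 22.2% and 5.56% in DDX5-deficient cells. The site listed under Zfp804b, chr5:7493348, has no annotated transcript on its strand and had 60% and 37.5% against 16.7% and 16.7%. The coverage of the 8 sites with the largest negative differences ran from 5 to 10 reads. Several also had call scores under 0.99. These were 0.961 in DDX5-deficient library 1 at both Dcaf10 sites, 0.843 in library 2 at the Fnbp1 site and 0.951 in both at the Zfp804b listing.

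Where levels lay higher in DDX5-deficient cells, the 8 sites with the largest differences among those without overlap were all in 3′ UTRs, at 11 to 29 reads. Gla, the lysosomal alpha-galactosidase, had 25% and 15.4% in WT and 50% and 71.4% in DDX5-deficient cells, at 13 reads, a difference of 40.5 points with an adjusted p of 0.417 in limma. Bri3bp had 52.9% and 36.4% against 83.3% and 60%, at 11 reads. Wdr76, a WD-repeat protein tied to DNA damage, had at its downstream site 29.2% and 27.3% against 53.3% and 50%, and at the upstream site 26.9% and 16.7% against 48.3% and 36.1%. The Wdr76 sites lie 6 bases apart, and each library ranks alike at both within its group.

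Sco1, a copper chaperone of cytochrome oxidase, had at chr11:67065224 26.2% and 18.5% in WT and 46.8% and 38.0% in DDX5-deficient cells, at 27 reads. Atl3, an atlastin that shapes the endoplasmic reticulum, had at chr19:7535250 18.2% and 24.1% against 33.96% and 40.4%, at 29 reads. The groups were well separated at both sites, with each DDX5-deficient value above the higher WT value by more than the WT libraries differed. Ppp1r15b, a subunit of the phosphatase that reverses the integrated stress response, had at chr1:133138010 50% and 35.7% against 58.3% and 58.3%. Usp45, a deubiquitinase, had at chr4:21834549 16.7% and 18.2% against 46.4% and 19.4%, so only DDX5-deficient library 1 stood clearly apart there.

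At the level of genes, the mean over sites lay lower in DDX5-deficient cells for 71 of 130 genes and higher for 59, with a median difference of -0.68 points. limma with Benjamini-Hochberg adjustment over the 130 genes called 0 of them, or 0%, with a smallest adjusted p of 0.216 for Nt5dc3. At an unadjusted p under 0.05 there were 10 genes, or 7.69%, of which 9 lay lower and 1, Gla, higher. Both DDX5-deficient gene means lay below both WT means in 30 genes, 23.1% of those tested, and above in 25, or 19.2%. Of the 55 genes with at least 2 sites, 13 had all sites lower and 8 all sites higher.

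The 10 genes with the most sites held 112 of the 328 sites. Rpa1, the large subunit of the single-stranded DNA binding complex RPA, had the most sites, with 28 in 484 bases of its 3′ UTR at 36 to 98 reads. Its mean level was 30.8% and 26.9% in WT and 31.4% and 26.7% in DDX5-deficient cells, which interleave by library number. Single sites ranged from -10.03 to 12.96 points, with 12 lower and 16 higher, 6 below and 7 above both WT values, or 21.4% and 25% of the 28 sites beside 23.8% and 19.5% of all sites.

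Single Rpa1 sites are given by their distance from the first site along the transcript. The site 26 bases from the first had 99.2% and 98.6% in WT and 99.5% and 99.1% in DDX5-deficient cells, and was one of 2 sites in the table at 95% or more in all 4 libraries. The site 31 bases from the first had 10.9% and 7.14% against 23.3% and 12.3%, with both DDX5-deficient values above. The site at 22 bases had 17.1% and 13.9% against 9.14% and 5.45%, with both below. These sites, 9 bases apart, thus had differences of opposite sign.

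**Figure D4:**
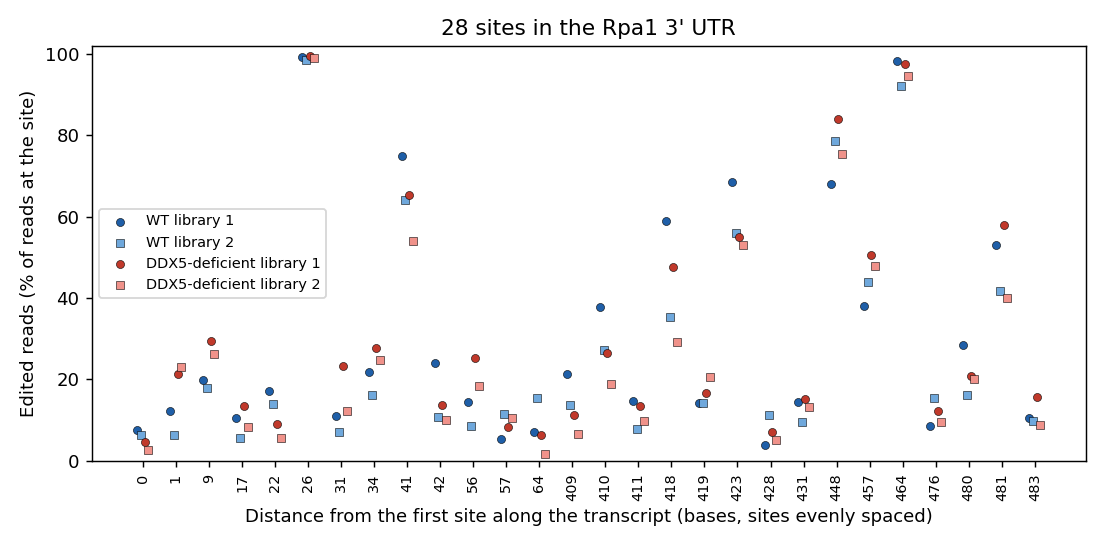
Edited level (y axis, percent of reads) in 4 libraries at the 28 sites of the Rpa1 3′ UTR (x axis, distance in bases from the first site along the transcript, sites evenly spaced). Levels run from 1.72% to 99.5% between sites, far more than between libraries at a site.

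Ccr4, a chemokine receptor of activated helper T cells, held 15 sites with a mean of 33.6% and 33.2% in WT and 29.3% and 24.04% in DDX5-deficient cells. Both DDX5-deficient means lay below both WT means, a difference of -6.77 points with an adjusted p of 0.681 in limma. The 9 sites beyond the annotated transcript end had a median difference of -10.3 points, with 7 lower, and the 6 sites inside the 3′ UTR one of -0.21 points, with 3 lower. This split was made after the values were seen. At coverage of at least 50 reads a single Ccr4 site remained, with a difference of 3.24 points.

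Rbbp4, a histone-binding subunit of chromatin complexes, held 8 sites in 124 bases of its 3′ UTR, at 70 to 114 reads, and all 8 lay higher in DDX5-deficient cells. The mean was 17.0% and 17.5% in WT and 23.6% and 22.3% in DDX5-deficient cells, 17.2 ± 0.306% against 23.0 ± 0.886% (SD, n = 2 each). At 5 of the 8 sites, 62.5% beside 19.5% of all sites, both DDX5-deficient values lay above both WT values. An example is chr4:129309891, with 21.4% and 29.4% in WT and 34.8% and 39.9% in DDX5-deficient cells. The adjusted p of the gene was 0.681 in limma, and the 8 sites share reads.

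Mad2l1, the spindle checkpoint protein, held 9 sites, all lower, at 26.6% and 33.6% in WT and 25.8% and 24.8% in DDX5-deficient cells. Both DDX5-deficient means lay below WT, though library 1 lay close to WT library 1. The fall was not uniform over the sites, and at chr6:66540126 the groups overlapped. At chr6:66540725 the authors' deposited ratio of DDX5-deficient to WT level was 0.815 in library 1 and 1.16 in library 2. Rnf168, a ubiquitin ligase of the DNA damage response, had 7 sites at 38.0% and 41.4% against 31.0% and 25.6%, with 6 lower, a difference of -11.4 points and an adjusted p of 0.526 in limma. Ankrd28, a scaffold of a phosphatase complex, had 7 sites at 18.4% and 21.03% against 27.0% and 22.8%, with 5 higher, and its DDX5-deficient means lay above WT.

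The other 3 of these genes overlapped between groups. Gnl3l, a nucleolar GTPase, had 11 sites at 36.9% and 45.6% in WT and 43.3% and 37.1% in DDX5-deficient cells. Wdr76 had 11 sites at 40% and 44.6% against 42.5% and 45.3%, and a further 6 sites that the table lists under Frmd5 lie in its 3′ UTR, at 48.2% and 50.1% against 52.4% and 54.0%. For the Frmd5 listing, unlike the Wdr76 listing, both DDX5-deficient means lay above both WT means. Prrg4, a vitamin K-dependent membrane protein, had 9 sites at 18.6% and 30.3% against 16.0% and 21.2%. In Prrg4 library 2 of each group was the higher.

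**Figure D5:**
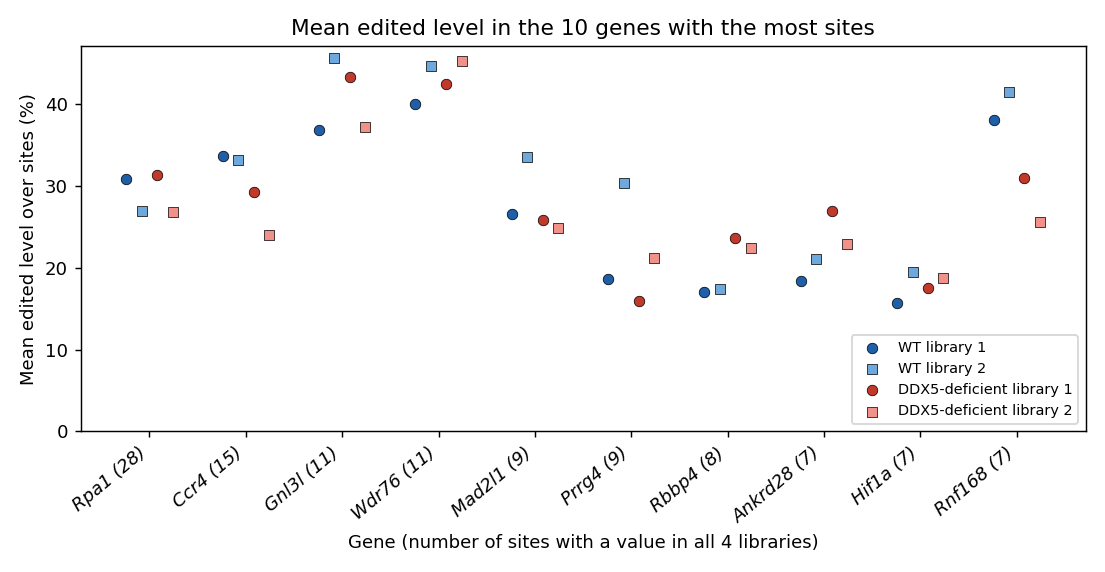
Mean edited level over the sites of a gene (y axis, percent) in each of the 4 libraries for the 10 genes with the most sites (x axis, number of sites in brackets). Both DDX5-deficient points lie below WT in Ccr4, Mad2l1 and Rnf168 and above WT in Rbbp4 and Ankrd28, and the groups overlap in the other 5 genes.

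Gene lists were read for sites, and no member of any list passed the test. Of 22 editing enzymes and their partners, 2 had sites, Adarb1 and Ddx6, and all 3 sites with 4 values lay lower, with a median of -11.3 points against -1.02 points over all sites. Adarb1 encodes the editing enzyme ADAR2, which edits its own intron. Its intronic sites had 77.3% and 87.5% in WT and 90.9% and 28.6% in DDX5-deficient cells at chr10:77324060, and 12% and 25% against 7.69% and 6.67% at chr10:77324068, at 8 reads each. The groups overlapped at the first and not at the second. Ddx6, a helicase of messenger RNA decay, had 8.82% and 16.7% against 9.26% and 8.70%, with the first DDX5-deficient value inside the WT range.

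Of 24 sensors of double-stranded RNA and interferon genes, only Eif2ak2, the kinase PKR, had a site. It had 15.0% and 61.9% in WT and 20.9% and 9.23% in DDX5-deficient cells, at 21 reads, and the WT libraries lay on either side of DDX5-deficient library 1. Of 18 known recoding targets 7 had sites, 11 in all, of which 8 lay lower and 3 higher, with a median of -8.22 points, 5 below and 1 above both WT values, beside 23.8% below and 19.5% above over all sites. One of the 3 higher was an intronic site of Filip1l, chr16:57391496, at 98.6% and 17.0% in WT and 98.3% and 91.5% in DDX5-deficient cells, where WT library 2 alone stood apart. The value of that library rests on 59 reads.

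Of 30 Th17 and T cell genes, Il21, a cytokine that Th17 cells make and respond to, was the one with sites. At chr3:37224569 it had 2.96% and 7.46% in WT and 10.8% and 13.1% in DDX5-deficient cells, at 201 reads, and at chr3:37223084 9.09% and 10.7% against 17.6% and 21.1%, at 28 reads. Both sites lay in the 3′ UTR and above WT in both libraries. Of 24 genes of genome maintenance only Rpa1 had sites. Of 11 genes of apoptosis and the lysosome 0 had sites, and of zinc finger genes 5 had 1 site each, of which 2 lay lower and 1 higher among the 3 with 4 values.

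Some other well covered genes were picked after their values were seen. Nras, the small GTPase, had at chr3:103066090 39.5% and 25.5% in WT and 12.8% and 17.2% in DDX5-deficient cells, at 55 reads, and at chr3:103066122 3.97% and 9.26% against 2.17% and 3.11%. Both sites lay below WT in both libraries. The 3 sites listed under 2310039H08Rik lie in the 3′ UTR of Rpl7l1, and all 3 lay above WT in both libraries, with 12.5% and 16.1% in WT and 20.1% and 23.3% in DDX5-deficient cells at chr17:46775081. Tapbp, the tapasin of antigen loading, had 8.06% and 15.8% against 24.1% and 20.6% at chr17:33928554, and of its 4 sites 3 lay higher and 1 lower, with 2 above both WT values and 0 below. Apobec3, the cytidine deaminase that restricts retroviruses, had 25% and 15.9% against 13.0% and 5.56% at chr15:79907541, but its 4 sites differed in direction. Of these 2 lay below both WT values and 2 had higher means, 1 of them, chr15:79907814, with 7.88% and 6.25% above 4.42% and 5.06%.

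Levels near complete editing were found at few sites. Besides the Rpa1 site, the one site at 95% or more in all 4 libraries was listed under Pisd-ps3. The 5 highest means over the 4 libraries under 95% include the site listed under Ptbp2, chr3:119709828, in a noncoding exon of Gm4332. It had 92.0% and 96.2% in WT and 90% and 90.3% in DDX5-deficient cells. Among the others were the sites listed under Gli3 (chr13:15118737) and Axin2 (chr11:109012015) and an intronic site of Cnot6 (chr11:49678962). The site listed under Gli3 lies in a noncoding exon of Gm9512, and that under Axin2 has no annotated transcript on its strand. The Gli3, Axin2 and Cnot6 listings each had 100% in a DDX5-deficient library with a score of 0 there.

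At 27 of the 355 sites, or 7.61%, in 20 genes, a DDX5-deficient library had no value. It was missing in both libraries at 8 sites, in library 1 only at 6 and in library 2 only at 13, and 13 genes had no site left with 4 values. The median coverage of the 27 sites was 7 reads against 19 at the sites with 4 values, and 1 of them had 20 reads or more. The 4 Gla sites without any DDX5-deficient value, 3 of them listed under Rpl36a, include chrX:134588551, with 42.9% and 71.4% in WT cells, and chrX:134589347, with 18.2% and 28.6%, which lies 55 bases from the Gla site that stood highest in DDX5-deficient cells. Hspa4l at chr3:40794262 had 13.0% and 36.4% in WT cells, and Bri3bp at chr5:125456906 had 30.8% and 25%. The table does not say whether an absent value is an unedited site or an uncovered one.

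The authors' deposited table also holds ratios of levels, where such absent values stand as a ratio of 0. In the authors' deposited table the median ratio of DDX5-deficient library 1 to WT library 1 was 1.04, and that of library 2 to library 2 was 0.805. By the authors' deposited table both ratios were above 0 and at most 0.5 at 19 sites, and at least 2 at 3 sites, 2 in Hif1a and 1 in Gla.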

How the data were processed

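Ribosome-depleted RNA of 2 WT and 2 DDX5-deficient Th17 libraries was read for A-to-I sites with SAILOR at a confidence of 0.99, per the labels. The submitters' processing notes name STAR 2.6.1a and mm10, without saying which step they belong to. The SAILOR version, its minimum coverage and whether known variants were removed are not given in the sources used here.

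The authors' deposited fraction of edited reads per site and library was printed as a percent. The deposited call score, the coverage count of WT library 2 and the authors' ratio of levels were used as described. Binomial intervals are exact Clopper-Pearson intervals at 95% and cover counting error only, since PCR copies of a molecule cannot be recognised in these reads.

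Sites were located in GENCODE M21 (mm10), where 293 of 355 deposited gene names matched the annotated gene on the strand of the site; names are printed as deposited unless stated. A protein-coding transcript of the named gene was preferred, then coding sequence over UTR over intron. Intronic sites without a transcript window are shown without sequence. Values of 1 gene with a coding site are not reported here by name, though its sites stay in all counts. Inverted matches were sought with blastn 2.17.0 between 100 bases on each side of a site and its transcript, and had to cover the site.

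Levels were transformed to the arcsine square root of the fraction and tested with limma 3.58.1 in R 4.3.3 (group only, two-sided, Benjamini-Hochberg adjustment, called under 0.05), per site and per gene mean over sites. With 4 libraries the p-values measure only the spread between these libraries. The code was tested on simulated data. Library medians were compared by exact permutation. Alternatives were other transformations, a replicate block, a robust variance, score and coverage limits, sites also listed for another Th17 culture, and leaving out each library.

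The sites, gene lists and the rule for names were chosen with earlier results of these data known. Named were the 8 largest differences without overlap in each direction, the 10 genes with the most sites, coding sites, list members, the 6 best covered sites without a DDX5-deficient value and the highest levels; genes outside it are said to be picked after their values were seen. The limit of 50 reads, the coverage bins and the split of locations by coverage were added after the values were seen. Same-numbered libraries were not shown to pair: their deviations from the group means correlated at r = 0.0751 over 328 sites, and there are only 2 pairs.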

Additional observations from a re-analysis of the deposited data

How the results depend on the processing

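No alternative called a site or a gene. The 13 alternatives for sites gave 0 calls in limma with Benjamini-Hochberg adjustment, 13 to 42 sites at an unadjusted p under 0.05 and smallest adjusted p-values of 0.173 to 0.815, and the 15 for genes gave 0 calls, 3 to 17 genes and 0.103 to 0.843. The sign of the median difference was not stable: leaving out 1 library at a time it ran from -2.81 points (without WT library 1) to 1.09 points (without WT library 2) over sites and from -3.27 to 1.12 points over genes, and the share of sites lower from 45.7% to 61.0%. It was 0.48 points over sites and 0.46 over genes at a score of at least 0.99 in all 4 libraries, 0.38 points at 20 reads or more, 0.39 points at 50 reads or more, and -1.55 points with absent DDX5-deficient values set to 0%. The 27 sites without a DDX5-deficient value became 1 at 20 reads or more, and 78 when a score of at least 0.99 was also required. With the replicate number as a block (replicate block), limma called 0 sites and 0 genes, with 27 sites and 11 genes at an unadjusted p under 0.05. A block cannot alter the differences of group means in this balanced design, so the median difference of -1.02 points was fixed in advance. The alternatives in transformation, block and variance use the same differences in percent, so a direction could not reverse under them. A limit by score, coverage or listing keeps or drops a single site without changing its difference. With these counted in, 409 values over named sites and genes kept their direction and 14 reversed. Those were Ccr4, at 3.24 points, and Hif1a, at -1.21 points, at 50 reads or more, Wdr76, at -9.44 points, at 20 reads or more, and, leaving out 1 library at a time, the Cog3 site (-6.18 to 8.92 points), the Chtf8 site (-3.92 to 2.98), and the gene means of Rpa1 (-2.14 to 2.48), Gnl3l (-5.37 to 3.36), Wdr76 (-0.74 to 3.84) and Hif1a (-1.32 to 2.50). The higher coverage limits leave 1 site each of Ccr4, Wdr76 and Hif1a; otherwise the cause was not tested. Depth is known for WT library 2 only, so counting error in the other 3 libraries cannot be stated.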
